A study of Homo sapiens with 9 samples.

Results

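The 10 genes described here are CTTN, which encodes cortactin, its blood cell paralogue HCLS1 and 8 further regulators of actin filaments: WAS, WASF2, WIPF1, ARPC1B, CORO1A, LCP1, LSP1 and GSN. They were found by gene name among the 60623 genes listed in every library, and no name repeated. CTTN was chosen by its rise in AML1-ETO cells at 12 and 48 h, so its values in that line are a description, and the other genes were selected with results of these data already known. The data are RNA-seq of U937 cells, a human monocytic cell line, in which 3 stable lines were followed at 0, 12 and 48 h of 5 μg/ml doxycycline. All lines carried a retroviral doxycycline-inducible system, which drove HA-tagged AML1-ETO in the first line, HA-tagged ETO2-GLIS2 in the second and no insert in the last, and they are called AML1-ETO, ETO2-GLIS2 and empty vector cells here. Each fusion line was 1 clone, each of the 9 conditions had 1 library, and the 12 h and 48 h comparisons of a line share its 0 h library. There is therefore no replicate check and no p-value, and a difference between a fusion line and the empty vector line cannot be told apart from a difference between clones.

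Branched actin networks form when the Arp2/3 complex, switched on by proteins of the WASP and WAVE families, starts a new filament on the side of an existing one. Cortactin binds the complex and the filament together and keeps the branch from falling apart, and HS1, the product of HCLS1, has the same build and takes this place in most blood cells. Cortactin is best known from adherent cells, where it marks lamellipodia and invadopodia, and its gene lies in a chromosome 11 region that is often amplified in carcinomas. Coronins, plastins, LSP1 and gelsolin then debranch, bundle, bind or sever the filaments.

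The RUNX1T1 sequence carried by AML1-ETO was listed at 0.512, 22.2 and 28.7 FPKM at 0, 12 and 48 h of AML1-ETO induction, and at no more than 0.0240 FPKM in either other line. FPKM scales the reads on a gene to exon length and library total. In ETO2-GLIS2 cells, CBFA2T3, the gene of ETO2, went from 4.10 FPKM to 11.4 and 12.6 FPKM, and GLIS2 from 2.39 FPKM to 6.79 and 8.85 FPKM. The paper proposes leaky expression of the fusions without doxycycline, so the 0 h libraries may not be free of them. The recovered library totals, to which the FPKM were scaled, lay between 15136398 and 18443639 reads. Of 11 listed markers of monocytic cells, 6 reached 1 FPKM in AML1-ETO cells at 48 h and 7 or 8 in each other library. CD4, LYZ, ELANE, SPI1, CEBPA and CD33 were present in every library, whereas CD14 and CD68 stayed below 0.1 FPKM and MPO below 1 FPKM. ITGAM and CSF1R completed the list. For CD68, 81.6% of the annotated exon bases lie under exons of another gene on the same strand. The summed level of the 11 monocytic markers ranged from 936 to 1503 FPKM in empty vector cells, from 792 to 2218 FPKM in ETO2-GLIS2 cells and from 330 to 2230 FPKM in AML1-ETO cells, and the lowest value of each line was that at 48 h. The sum follows the markers with the highest levels, and in ETO2-GLIS2 and empty vector cells single markers went either way. From 0 to 48 h in AML1-ETO cells, 6 of the 11 markers had a mean of at least 1 FPKM. Of these, 0 were past 2-fold higher, against 17.3% of all genes, and 4 (66.7%) lower, against 11.3%. Their median log2 change was -2.96. From 0 to 48 h in ETO2-GLIS2 cells ELANE fell from 491 to 122 FPKM, whereas ITGAM rose from 2.23 to 11.5 FPKM. In empty vector cells ELANE fell from 428 to 157 FPKM and ITGAM rose from 1.17 to 2.78 FPKM. None of 6 epithelial and none of 5 fibroblast markers, from cell types known for high cortactin, reached 1 FPKM in any library, with summed levels of at most 0.280 and 0.279 FPKM. Of 6 megakaryocyte markers PF4, PPBP and GP9 were listed at 0 throughout and the summed level was at most 2.53 FPKM, and the 3 erythroid markers summed to at most 0.157 FPKM.

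Promoter sequences were taken from RefSeq on GRCh38.p14, in which 6 of the 10 genes had an entry, and ARPC1B, CTTN, LSP1 and WASF2 had none. The 250 bases before the start of HCLS1, whose level varied least, and of CORO1A, which went in opposite directions in the empty vector and AML1-ETO lines, are shown 5′ to 3′ on the strand of the gene. HCLS1 lies on the minus strand at chr3:121660904-121661153 and CORO1A on the plus strand at chr16:30183352-30183601, and capitals mark the letters GGAAG of the ETS family core on either strand, which read CTTCC when they lie on the other strand.
HCLS1: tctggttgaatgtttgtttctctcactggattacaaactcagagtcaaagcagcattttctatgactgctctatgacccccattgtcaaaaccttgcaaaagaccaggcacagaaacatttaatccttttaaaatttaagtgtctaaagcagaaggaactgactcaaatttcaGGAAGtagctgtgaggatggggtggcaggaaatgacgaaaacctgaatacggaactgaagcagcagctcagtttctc
CORO1A: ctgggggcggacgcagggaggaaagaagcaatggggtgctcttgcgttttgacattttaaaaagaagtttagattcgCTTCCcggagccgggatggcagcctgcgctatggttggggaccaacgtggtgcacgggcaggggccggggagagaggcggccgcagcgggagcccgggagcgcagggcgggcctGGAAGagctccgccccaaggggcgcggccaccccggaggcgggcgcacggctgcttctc
The HCLS1 sequence held 1 match to GGAAG and the CORO1A sequence 2. Of the 34943 promoter entries, each likewise cut to the 250 bases before the start, 65.1% hold at least 1. The letters TGTGGT and TGCGGT, to which the RUNX part of AML1-ETO is known to bind, matched in neither gene on either strand. They occur in 11% and 5.82% of all entries. Among the other genes with an entry, TGTGGT matched at LCP1, at 1 start of WAS and at 1 start of GSN. TGCGGT matched at 1 other start of GSN, and WIPF1 held neither. HCLS1 also held 1 match to the AP-1 letters TGANTCA, present in 6.59% of entries. Such matches describe letters in these windows, and binding was not measured here.

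CTTN was low in all uninduced cells and rose in AML1-ETO cells. In empty vector cells CTTN (ENSG00000085733, chr11:70398529-70436575 of GRCh38.p14) was at 0.858, 0.913 and 0.673 FPKM at 0, 12 and 48 h. In AML1-ETO cells the levels were 0.929, 5.93 and 30.5 FPKM at the same times, from 107, 636 and 3223 recovered reads. In ETO2-GLIS2 cells they were 0.944, 0.998 and 1.41 FPKM, from 121, 124 and 160 reads. The uninduced lines thus lay within 1.1-fold of each other, and the AML1-ETO library at 48 h stood above the range of 0.673 to 5.93 FPKM that the other 8 libraries spanned. On the scale of log2(FPKM + 0.01), the change in AML1-ETO cells was 2.66 at 12 h (95% interval 2.38 to 2.98) and 5.02 at 48 h (4.76 to 5.33), or 32.5-fold, and from 12 to 48 h it was 2.36 (2.24 to 2.49). The intervals here and below are exact Clopper-Pearson intervals of the ratio of reads and cover counting error only. In empty vector cells the 48 h value was -0.35 (-0.81 to 0.10), and in ETO2-GLIS2 cells it was 0.57 (0.23 to 0.93). In bulk RNA a higher level in every cell and a larger share of cells with the transcript cannot be told apart.

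As a description of the value used to choose the gene, 133 of the 12030 genes with a mean of at least 1 FPKM in the AML1-ETO libraries at 0 and 48 h had a larger log2 change than CTTN. CTTN exceeded 46.4% of the genes with any reads in uninduced AML1-ETO cells, 69.3% after 12 h and 93.8% after 48 h. Between lines, the 48 h library of the AML1-ETO line exceeded that of the empty vector line by 5.48 on the log2 scale (5.16 to 5.86) and that of the ETO2-GLIS2 line by 4.43 (4.21 to 4.68). The ETO2-GLIS2 library at 48 h exceeded the empty vector library at 48 h by 1.05 (0.65 to 1.49), at a mean of 1.04 FPKM. In the order of levels, the AML1-ETO libraries at 48 and 12 h came first and the ETO2-GLIS2 library at 48 h next, and the interval of its difference from the 12 h library of the same line was 0.15 to 0.85. The remaining libraries lay between 0.673 and 0.998 FPKM, and within each line their differences had intervals that included 0. No annotated exon base of CTTN lies under an exon of another gene on the same strand, and 1.2% lie opposite exons of CTTN-DT.

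**Figure D1:**
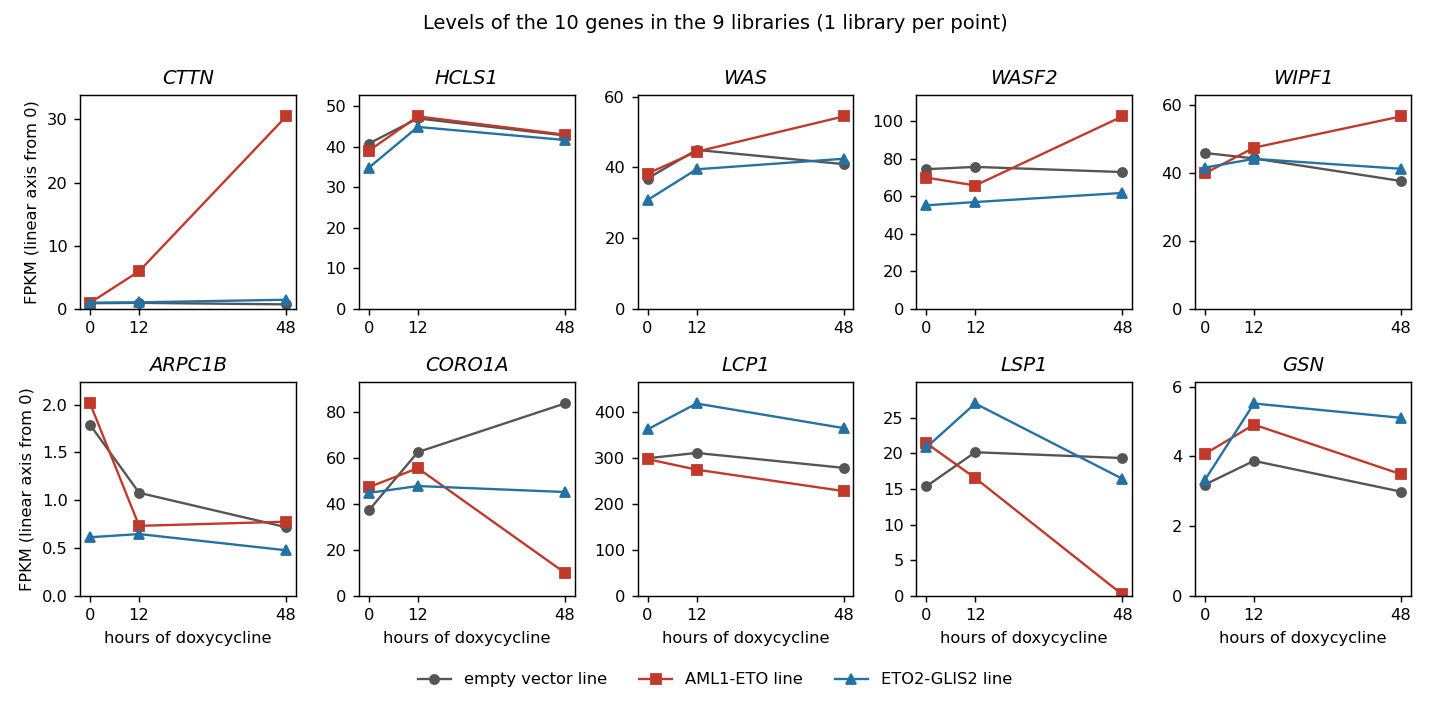
FPKM of the 10 genes (vertical axes, linear, each from 0 and scaled per gene) against hours of doxycycline in the empty vector, AML1-ETO and ETO2-GLIS2 lines, with 1 library per point. CTTN reached 30.5 FPKM in AML1-ETO cells at 48 h, where LSP1 was at 0.170 FPKM and CORO1A at 10.0 FPKM, while HCLS1 stayed between 34.8 and 47.5 FPKM in all libraries.

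HCLS1, whose product HS1 is a substrate of the kinases LYN and SYK downstream of antigen receptors, was expressed at a high and even level. It was at 40.8, 47.0 and 42.8 FPKM at 0, 12 and 48 h in empty vector cells. It was at 39.0, 47.5 and 43.0 FPKM in AML1-ETO cells and at 34.8, 44.9 and 41.7 FPKM in ETO2-GLIS2 cells. The highest library exceeded the lowest by 1.36-fold, the smallest such ratio among the 10 genes, and the 12 h library was the highest of each line. The log2 change at 48 h was 0.069 in empty vector cells, with an interval of -0.00024 to 0.14, 0.14 in AML1-ETO cells (0.071 to 0.21) and 0.26 in ETO2-GLIS2 cells (0.19 to 0.33). The median change of all genes with a mean of at least 1 FPKM was 0.16, 0.22 and 0.16 in these comparisons. With median-ratio rescaling of the libraries those medians were 0.039, 0.12 and 0.058, and HCLS1 was at -0.049, 0.046 and 0.16.

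FPKM is scaled by exon length, so the levels of the paralogues are set side by side here, with a limit. The recovered lengths, 6949 bases for CTTN and 5093 for HCLS1, equal all annotated exons of each gene joined. Which transcripts the cells expressed was not tested, so the ratios between the 2 genes depend on these lengths. HCLS1 exceeded CTTN 47.5-fold, 42.0-fold and 36.9-fold in the uninduced empty vector, AML1-ETO and ETO2-GLIS2 lines. In AML1-ETO cells the excess was 8.01-fold at 12 h and 1.41-fold at 48 h. CTTN thus made up 2.33%, 11.1% and 41.5% of the summed FPKM of both genes at 0, 12 and 48 h in that line. In empty vector cells the share was 2.06%, 1.90% and 1.55%, and in ETO2-GLIS2 cells 2.64%, 2.17% and 3.27%. The shift came with the level of CTTN, and the HCLS1 level of the AML1-ETO library at 48 h, 43.0 FPKM, was within the range of the other 8 libraries.

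**Figure D2:**
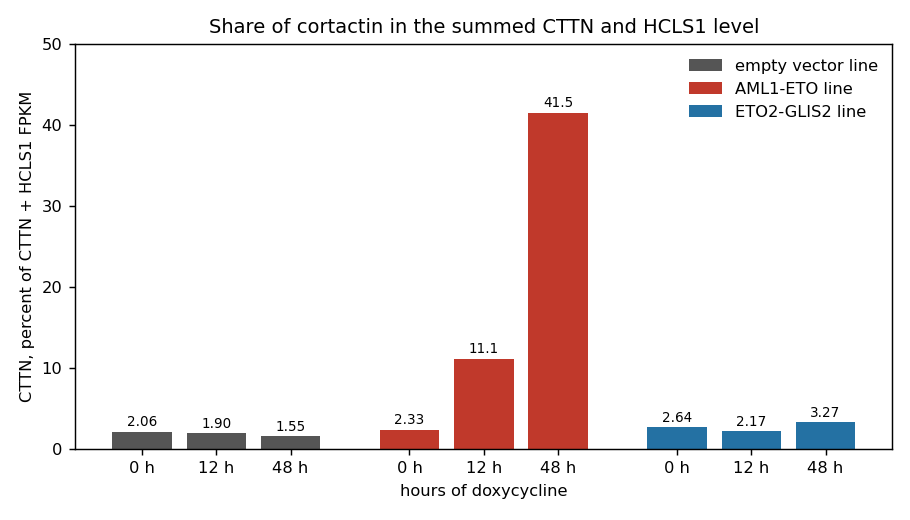
CTTN as a percentage of the summed FPKM of CTTN and HCLS1 (vertical axis, from 0) in each of the 9 libraries, grouped by line and hours of doxycycline. The share was 41.5% in AML1-ETO cells at 48 h and 11.1% at 12 h, and between 1.55% and 3.27% in the other libraries.

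WAS, WASF2 and WIPF1, which act on the Arp2/3 complex or its activator, were expressed in every library and none of the 3 passed 2-fold. WAS encodes WASP, the activator of the complex in blood cells, and was at 36.8, 45.0 and 40.9 FPKM at 0, 12 and 48 h in empty vector cells, 38.2, 44.4 and 54.4 FPKM in AML1-ETO cells and 30.7, 39.5 and 42.4 FPKM in ETO2-GLIS2 cells. Its log2 change at 48 h was 0.15 in empty vector cells (0.046 to 0.26), 0.51 in AML1-ETO cells (0.41 to 0.61) and 0.47 in ETO2-GLIS2 cells (0.36 to 0.57). WASF2 encodes WAVE2, which acts downstream of Rac at the leading edge, and was at 74.4, 75.6 and 72.9 FPKM in empty vector cells, 69.9, 65.7 and 102.5 FPKM in AML1-ETO cells and 55.1, 56.9 and 61.7 FPKM in ETO2-GLIS2 cells. Its values at 48 h were -0.030 (-0.079 to 0.019), 0.55 (0.51 to 0.60) and 0.16 (0.11 to 0.22) on the log2 scale in the empty vector, AML1-ETO and ETO2-GLIS2 lines.

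WIPF1 encodes WIP, which holds WASP in its inactive form and shields it from degradation. It was at 45.9, 44.3 and 37.6 FPKM in empty vector cells, 39.8, 47.4 and 56.6 FPKM in AML1-ETO cells and 41.6, 44.1 and 41.2 FPKM in ETO2-GLIS2 cells. The log2 values at 48 h were -0.29 (-0.34 to -0.23) in empty vector cells, 0.51 (0.46 to 0.56) in AML1-ETO cells and -0.012 (-0.062 to 0.037) in ETO2-GLIS2 cells. For WAS, WASF2 and WIPF1 alike, the AML1-ETO library at 48 h held the highest of the 9 levels, 1.77-fold, 1.86-fold and 1.51-fold above the lowest. Of all genes tested at 48 h in that line, 35.3%, 33.3% and 35.4% had a larger log2 change than WAS, WASF2 and WIPF1. At 12 h WASF2 in AML1-ETO cells was at -0.090 (-0.14 to -0.039), so that its higher level belonged to the later time.

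ARPC1B encodes the form of the Arp2/3 subunit that prevails in blood cells, and was listed at a low level. It was at 1.79, 1.08 and 0.717 FPKM in empty vector cells, 2.01, 0.731 and 0.774 FPKM in AML1-ETO cells and 0.612, 0.645 and 0.475 FPKM in ETO2-GLIS2 cells, from 31 to 133 reads. It passed 2-fold downwards in AML1-ETO cells at 12 h (log2 change -1.45, -1.98 to -0.96) and 48 h (-1.37, -1.89 to -0.89) and in empty vector cells at 48 h (-1.31, -1.85 to -0.81). With a pseudocount of 1 FPKM the 48 h values were -0.76 and -0.70, below 2-fold, and with the change in the empty vector line subtracted the 48 h value of AML1-ETO cells was -0.059. The subunit ARPC2 was at 45.0 to 80.0 FPKM in the same libraries. In the annotation on GRCh37, 23.2% of the exon bases of ARPC1B lie under same-strand exons of the gene ENSG00000284292, which also covers 58.6% of those of ARPC1A, and the default of the counter leaves out reads shared between genes. The part of this overlap in the level of ARPC1B was not tested.

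CORO1A and LSP1, both leukocyte genes for proteins of the filament, were lower in AML1-ETO cells at 48 h. CORO1A encodes coronin 1A, which binds actin and the Arp2/3 complex and is needed for the survival and migration of lymphocytes. It was at 37.2, 62.7 and 83.9 FPKM in empty vector cells, 47.3, 55.7 and 10.0 FPKM in AML1-ETO cells and 44.9, 47.9 and 45.3 FPKM in ETO2-GLIS2 cells. It rose in empty vector cells at 48 h with a log2 change of 1.17 (1.11 to 1.24), and fell in AML1-ETO cells by 2.24 (-2.36 to -2.13), or 4.73-fold, after 0.23 (0.17 to 0.30) at 12 h. In ETO2-GLIS2 cells the 48 h value was 0.012 (-0.053 to 0.078). In the annotation 11.1% of its exon bases lie opposite exons of CORO1A-AS1, and since the TruSeq kit used does not keep the strand, reads of the pair cannot be told apart.

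LSP1 encodes a leukocyte protein that binds actin filaments and acts in the movement of neutrophils. It was at 15.3, 20.2 and 19.3 FPKM in empty vector cells and 20.8, 27.0 and 16.4 FPKM in ETO2-GLIS2 cells. In AML1-ETO cells it was at 21.4, 16.5 and 0.170 FPKM at 0, 12 and 48 h, the last from 14 reads. The other 8 libraries lay between 15.3 and 27.0 FPKM. The log2 change in AML1-ETO cells was -0.38 (-0.48 to -0.28) at 12 h and -6.89 (-7.85 to -6.22) at 48 h, and 0.349% of the genes tested had a lower value at 48 h. With a pseudocount of 1 FPKM the 48 h value was -4.26. In the empty vector and ETO2-GLIS2 lines the 48 h values were 0.33 (0.23 to 0.44) and -0.34 (-0.44 to -0.24). CTTN was thus past 2-fold from 12 h in AML1-ETO cells, and LSP1 and CORO1A at 48 h. From 12 to 48 h LSP1 fell by 6.52 on the log2 scale (-7.47 to -5.85) and CORO1A by 2.47 (-2.59 to -2.36).

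**Figure D3:**
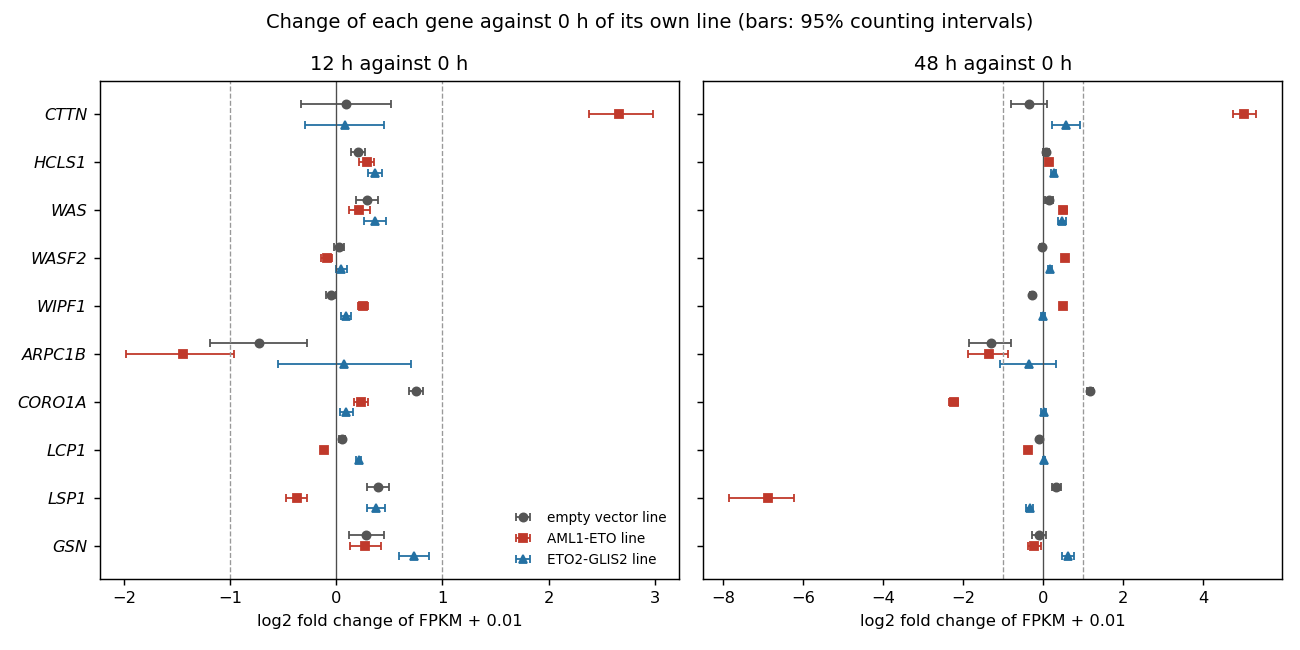
Log2 fold change of FPKM + 0.01 against 0 h of the same line at 12 h (left) and 48 h (right) for the 10 genes and 3 lines, with bars for the 95% counting interval and dashed lines at 2-fold. At 48 h in AML1-ETO cells CTTN stood at 5.02, LSP1 at -6.89 and CORO1A at -2.24, while in ETO2-GLIS2 cells no gene passed the dashed lines.

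LCP1 and GSN did not pass 2-fold in any line. LCP1 encodes L-plastin, the actin bundler of leukocytes, and had the highest levels of the 10 genes. It was at 299.2, 310.8 and 278.3 FPKM in empty vector cells, 297.3, 274.5 and 227.8 FPKM in AML1-ETO cells and 362.0, 418.4 and 364.9 FPKM in ETO2-GLIS2 cells. The AML1-ETO library at 48 h was the lowest, at a log2 value of -0.38 (-0.41 to -0.36) against 0 h. In the annotation 19.0% of its exon bases lie opposite exons of CPB2-AS1. GSN encodes gelsolin, which severs and caps filaments when calcium rises, and was at 3.19, 3.87 and 2.99 FPKM in empty vector cells, 4.07, 4.92 and 3.49 FPKM in AML1-ETO cells and 3.33, 5.52 and 5.11 FPKM in ETO2-GLIS2 cells. Its log2 values at 48 h were -0.094 (-0.27 to 0.081), -0.22 (-0.38 to -0.065) and 0.62 (0.48 to 0.76) in the 3 lines, and at 12 h in ETO2-GLIS2 cells 0.73 (0.59 to 0.87).

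A gene was called past 2-fold where the mean of both libraries was at least 1 FPKM. In AML1-ETO cells at 48 h, 1 of the 10 genes was called higher (CTTN), against 17.3% of all genes tested, and 3 were called lower (ARPC1B, CORO1A and LSP1), against 11.3%. The choice of CTTN used this comparison and nothing is read from its count. At 12 h, 1 of 10 was higher (CTTN, against 6.57% of all genes) and 1 lower (ARPC1B, against 2.39%). In empty vector cells at 48 h, 1 of the 9 genes tested was higher (CORO1A, against 8.00%) and 1 lower (ARPC1B, against 2.99%), CTTN being below the filter. At 12 h in that line 0 of 9 were higher, against 5.64%, and 0 lower, against 1.88%. In ETO2-GLIS2 cells 0 of 9 genes tested at 48 h were higher, against 10.8%, and 0 lower, against 2.54%. At 12 h, 0 of 8 were higher, against 3.03%, and 0 lower, against 1.46%. The median log2 change of the tested genes at 48 h was -0.030 in empty vector cells, -0.041 in AML1-ETO cells and 0.16 in those with ETO2-GLIS2.

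The same calls were made over 7 lists of 111 actin genes, which include the 10. In AML1-ETO cells at 48 h, 11 of the 87 listed genes tested were higher, or 12.6% against 17.3% of all genes, and 15 lower, or 17.2% against 11.3%, with a median of 0.028 against 0.22 for all genes. In empty vector cells 4 of 85 were higher (4.71% against 8.00%) and 1 lower (1.18% against 2.99%), with a median of 0.056. In ETO2-GLIS2 cells 4 of 84 were higher (4.76% against 10.8%) and 1 lower (1.19% against 2.54%), with a median of 0.15. At 12 h in empty vector cells 1 of 85 was higher (1.18% against 5.64% of all genes) and 0 lower (against 1.88%). In AML1-ETO cells at 12 h 2 of 88 were higher (2.27% against 6.57%) and 1 lower (1.14% against 2.39%). In ETO2-GLIS2 cells at 12 h 0 of 84 were higher, against 3.03%, and 0 lower, against 1.46%.

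Around CTTN and HCLS1, the list of bundling and branch proteins held 2 higher and 7 lower of 15 tested genes in AML1-ETO cells at 48 h, with a median of -0.48. These were 13.3% and 46.7% of the list, against 17.3% and 11.3% of all genes. The counts include CTTN, chosen by this comparison, and LSP1 and CORO1A, selected with results known. Beside CTTN, the coronin CORO1B rose from 10.3 to 38.7 FPKM, a log2 change of 1.91 (1.80 to 2.02), in contrast to CORO1A, and 17.0% of its exon bases lie under same-strand exons of PTPRCAP. FLNA, the filamin that crosslinks filaments, fell from 191.4 to 11.1 FPKM, by 4.10 (-4.17 to -4.03). CORO1C, ACTN1, ACTN4 and PLS1 completed the lower genes with LSP1 and CORO1A. CORO1B and FLNA, like the 4 genes just listed, were named after their values were seen. In ETO2-GLIS2 cells FSCN1, which encodes the bundler fascin, was the only called gene of this list, with 52.7 FPKM before and 25.8 FPKM after induction, and its level in empty vector cells went from 46.5 to 31.8 FPKM. That made 1 of 14 tested genes lower in ETO2-GLIS2 cells, or 7.14% against 2.54% of all genes, and 0 higher, against 10.8%.

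The Arp2/3 complex list had 2 higher and 1 lower of 10 in AML1-ETO cells at 48 h and a median of 0.049, against the same 17.3% and 11.3%. The higher genes were ARPC5L, which went from 11.3 to 29.9 FPKM, and ARPC1A, which went from 0.380 to 1.81 FPKM and shares exons as described for ARPC1B. In empty vector cells at 48 h ARPC1A also passed 2-fold, from 0.476 to 1.95 FPKM, ARPC5L went from 9.71 to 19.3 FPKM, a log2 value of 0.99, and the median of the list was 0.37. In ETO2-GLIS2 cells the values of these genes were 0.30 and 0.50, neither past 2-fold. The core subunit genes ACTR2 and ACTR3 stayed at 254 to 321 FPKM and 30.1 to 41.1 FPKM over all libraries. Among WASP and WAVE activators 3 of 18 were higher in AML1-ETO cells, or 16.7% against 17.3% of all genes, and 1 was lower, or 5.56% against 11.3%, with a median of 0.50. The higher genes were WASHC1, WASHC3 and WASHC4, which encode parts of the WASH complex that works on endosomes, whereas WASHC2A, WASHC2C and WASHC5 of that complex were not called, and WASHC1 was at 0.85 and 0.90 on the log2 scale in the empty vector and ETO2-GLIS2 lines. WASHC4 rose from 14.9 to 35.8 FPKM, and CYFIP2, a WAVE complex subunit, fell from 7.76 to 3.27 FPKM. In the empty vector and ETO2-GLIS2 lines 0 of 19 genes of this list were called in either direction at 48 h. Of all genes, 8.00% and 10.8% were called higher in these lines, and 2.99% and 2.54% lower.

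Of 10 tested formins, which elongate unbranched filaments, and other nucleators, 2 were higher and 2 lower in AML1-ETO cells at 48 h, against 17.3% and 11.3% of all genes. FMNL1 fell from 10.9 to 1.1 FPKM, by 3.29 on the log2 scale (-3.58 to -3.04), whereas its relative FMNL3 rose from 2.61 to 9.78 FPKM, by 1.90 (1.77 to 2.04). FMNL3 also passed 2-fold in ETO2-GLIS2 cells, from 1.85 to 4.01 FPKM, with 2.53 and 2.95 FPKM in empty vector cells. In the annotation 24.6% of FMNL1 and 19.7% of FMNL3 exon bases lie opposite exons of other genes. Of the severing and capping genes, gelsolin included, 0 of 16 were higher and 2 lower (12.5% against 11.3%), and CAPG, a capping protein of the gelsolin family, fell from 140.7 to 7.69 FPKM, a log2 change of -4.19 (-4.37 to -4.02). TWF2 was the other. Of the actin and monomer-binding genes 0 of 5 were called in any line at 48 h, with medians of 0.11, -0.58 and -0.18 in the empty vector, AML1-ETO and ETO2-GLIS2 lines. The shares of all genes in these lines were 8.00%, 17.3% and 10.8% higher, and 2.99%, 11.3% and 2.54% lower.

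Among partners of cortactin and HS1, 2 of 13 were higher and 2 lower in AML1-ETO cells, each 15.4% of the list, against 17.3% and 11.3%. HAX1, an HS1-binding protein, passed 2-fold in every line at 48 h, from 36.4 to 84.6 FPKM in AML1-ETO cells, from 33.5 to 78.0 FPKM in empty vector cells and from 37.2 to 87.9 FPKM in ETO2-GLIS2 cells. FES, a cytoplasmic tyrosine kinase of myeloid cells, fell from 41.8 to 10.7 FPKM in AML1-ETO cells, by 1.96 (-2.08 to -1.84). SH3PXD2A, which encodes the invadopodium scaffold TKS5, rose from 10.6 to 35.0 FPKM in empty vector cells and from 10.7 to 46.5 FPKM in ETO2-GLIS2 cells, and was at 13.7, 9.69 and 10.6 FPKM in AML1-ETO cells. In the AML1-ETO library at 48 h in which LSP1, CORO1A and CAPG were low, SPI1 was at 11.9 FPKM after 92.6 FPKM at 0 h and LYZ at 45.1 FPKM after 969.7 FPKM. The part of this lower level of monocytic markers in the results was not tested.

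**Figure D4:**
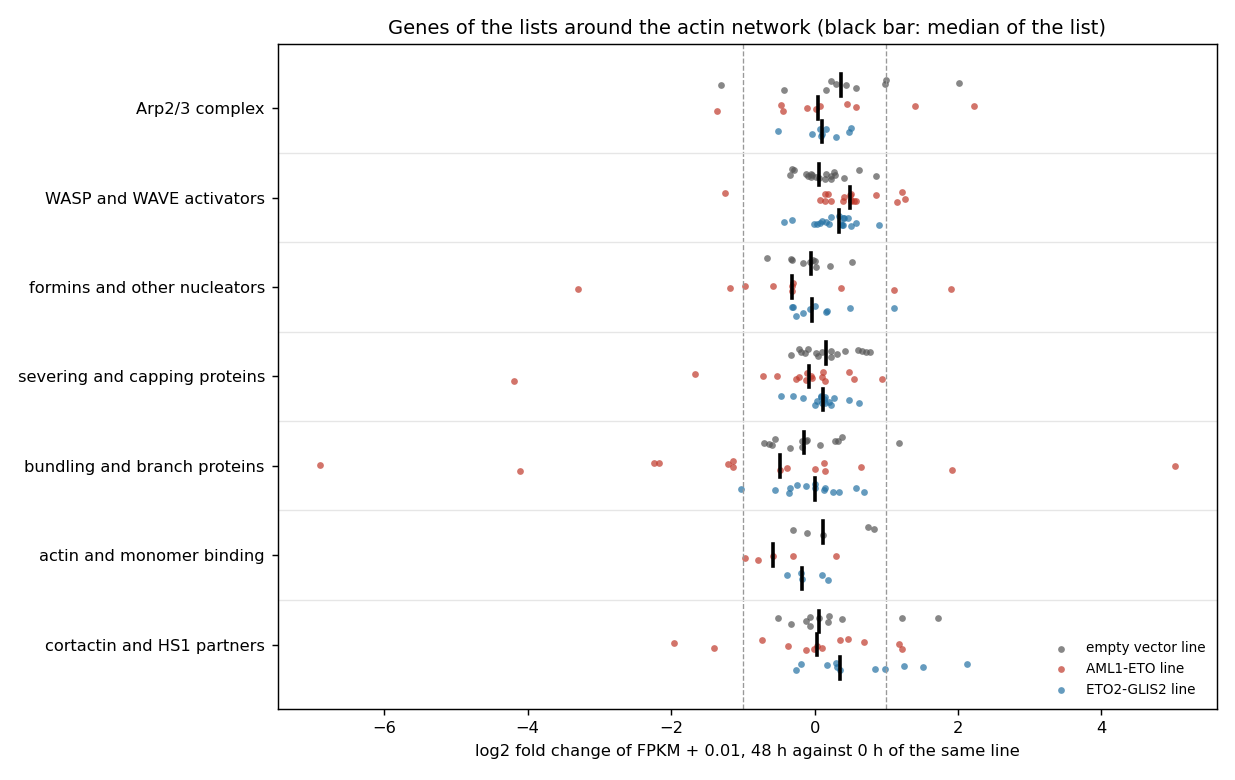
Log2 fold change at 48 h against 0 h of the same line (horizontal axis) for the tested genes of 7 lists around the actin network, with 1 point per gene, vertical jitter, a colour per line, a black bar at the median of each list and dashed lines at 2-fold. The AML1-ETO points reach from -6.89 (LSP1) to 5.02 (CTTN), with 11 genes past 2-fold higher and 15 lower.

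Over the 9 libraries, the genes with the pattern most like that of CTTN were SERTAD3, BAMBI, CAMKK1, JMJD1C and ATP6V1FNB, with Pearson correlations of log2(FPKM + 0.01) of 0.96, 0.95, 0.95, 0.94 and 0.94 among 685 genes with a mean of at least 5 FPKM and a range of at least 2 on that scale. The points include 3 time courses that each share a line, so the correlation is a description. CTTN was chosen by its rise in AML1-ETO cells, and all 5 genes were likewise highest in the AML1-ETO library at 48 h. Without that library SERTAD3, BAMBI, CAMKK1 and JMJD1C would not reach the minimum range. The likeness was thus partly set by the choice of CTTN and by the search. SERTAD3 was at 6.36, 8.77 and 19.6 FPKM at 0, 12 and 48 h in AML1-ETO cells and between 4.86 and 7.91 FPKM in the other lines. BAMBI was at 7.16, 17.4 and 41.3 FPKM, and between 5.26 and 12.6 FPKM elsewhere. CTTN itself had a mean below that minimum, so genes that start as low were largely left out of this search. For HCLS1 the most similar among 3009 genes with a mean of at least 5 FPKM and a log2 range of at least 1 were FUBP1, ZFP62 and SNORA11F, with correlations of 0.93, 0.90 and 0.88. HCLS1 itself, with a 1.36-fold difference between its highest and lowest library, did not reach that range. Genes as even as HCLS1 were thus left out of this search. FUBP1 was at 27.5, 39.96 and 38.1 FPKM in empty vector cells, 24.0, 41.2 and 38.4 FPKM in AML1-ETO cells and 19.9, 36.2 and 35.4 FPKM in ETO2-GLIS2 cells, so that, as for HCLS1, the 12 h library was the highest of each line.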

How the data were processed

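RNA from 9 U937 libraries was sequenced (TruSeq kit, NovaSeq instrument). The authors mapped reads with HISAT2 (2.0.5) to hg38, handled alignments with SAMtools (1.7), counted reads per gene with HTSeq (0.9.1) at default parameters and deposited FPKM computed with an R script, per the methods and the submitters' processing notes. The default of the counter assigns reads by strand, whereas the kit does not keep it. Neither the annotation version nor how exon length was defined is given in the sources used here.

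From the deposited FPKM, log2(FPKM + 0.01) differences were taken within each line, and a gene was called past 2-fold with a mean of at least 1 FPKM. Whole reads behind the FPKM were recovered (tolerance 0.03 reads) for 137 of 169 listed genes, starting from exon lengths of an annotation on GRCh37, and used for totals and for exact 95% Clopper-Pearson intervals. These cover counting error only, and they treat reads as independent. Reads that carry no molecular identifier are not independent, so the intervals may be too narrow. Recovery and calling were tested on simulated data. Python (3.11.15), numpy (2.4.6), pandas (2.3.3), scipy (1.17.1) and matplotlib (3.10.9) were used. No coordinates were taken from GRCh37, only shares of overlapping exon bases.

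The genes, lists and marker lists were chosen with earlier results of these data known. Named genes are the 10, the listed gene with the largest rise and fall past 2-fold at 48 h in each fusion line, the 5 genes most correlated with CTTN and the 3 with HCLS1, and RUNX1T1, GLIS2 and CBFA2T3. Other list genes were named after their values were seen. Results of 1 gene list and 1 marker list are not reported here. Alternatives covered pseudocount, scaling, filter, fold threshold, time point, subtraction of the empty vector line and reference library.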

Additional observations from a re-analysis of the deposited data

Results flagged for a closer look

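For LSP1, both induced libraries lay above 0 h in empty vector cells and below it in AML1-ETO cells, each with a counting interval clear of 0, and the log2 changes at 48 h differed by 7.23 (empty vector minus AML1-ETO). For WIPF1, both induced libraries lay below 0 h in empty vector cells and above it in AML1-ETO cells, and the log2 changes at 48 h differed by -0.79. With 1 library per condition the differences were not tested.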

How the results depend on the processing

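No paired analysis was possible because each condition had 1 library, and no library could be left out. With a pseudocount of 1 FPKM, 1 gene in place of 2 passed 2-fold in empty vector cells at 48 h (CORO1A) and in AML1-ETO cells at 12 h (CTTN), where subtracting the empty vector line also left 1. At 1.5-fold the counts were 2 in empty vector cells at 12 h (ARPC1B and CORO1A) and 1 in ETO2-GLIS2 cells at 12 and 48 h (GSN). In ETO2-GLIS2 cells, subtracting the empty vector line gave 1 at 48 h (CORO1A, lower), and the uninduced empty vector library as reference gave 1 at 12 and 48 h (ARPC1B, lower). The count of 4 in AML1-ETO cells at 48 h stayed within 1.5 times under every alternative run, but was 3, without ARPC1B, with a pseudocount of 1 FPKM (-0.76) and with the empty vector line subtracted (-0.059). LSP1 in these cells was at -4.26 with a pseudocount of 1 FPKM. For CTTN in that line the log2 change of 5.02 was 4.03 with a pseudocount of 1 FPKM, 5.37 with the empty vector line subtracted and 2.66 at 12 h, and in ETO2-GLIS2 cells it was 0.079 at 12 h. For HCLS1 the empty vector, AML1-ETO and ETO2-GLIS2 lines gave -0.049, 0.046 and 0.16 after rescaling and 0.20, 0.28 and 0.37 at 12 h, and the ETO2-GLIS2 line gave 0.031 with the uninduced empty vector library as reference. For the other 8 genes, whose alternatives were added after the data had been seen, 45 values lay within the counting interval, 58 outside it, and 1 called change turned direction, that of CORO1A in AML1-ETO cells, at 0.23 at 12 h. The values at 12 h describe another time of the same course rather than another processing. The causes of the other differences were not tested. Counting error limits the values of CTTN outside the AML1-ETO line and of ARPC1B, and variation between cultures is not known for any gene.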

Other observations

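CTTN lies in a region of chromosome 11 with 9 listed neighbours, of which 3 had a mean of at least 1 FPKM in each line. At 48 h against 0 h in AML1-ETO cells, LTO1 went from 1.95 to 4.91 FPKM, with a log2 change of 1.33 (1.12 to 1.55), PPFIA1 from 10.96 to 17.0 FPKM and FADD from 6.13 to 9.21 FPKM. The median of these genes was 0.63, against 0.15 in empty vector cells and 0.44 in ETO2-GLIS2 cells. LTO1 alone was past 2-fold, or 1 of 3 genes higher, against 17.3% of all genes. FGF3, FGF4 and FGF19 were listed at 0 in all libraries, ANO1 and SHANK2 reached at most 0.0306 and 0.0612 FPKM, and CCND1, the cyclin gene co-amplified with CTTN in carcinomas, lay between 0.0957 and 0.456 FPKM.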
